A study of Mus musculus with 9 samples.

Results

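Muscle that is held still loses mass, and the transcripts behind that loss were examined here in the gastrocnemius, the large calf muscle of the mouse, which is built mostly of fast fibres. Muscles of the immobilized leg (Dis, n = 3) were compared with muscles of untreated mice (NC, n = 3), which are 6 of the 9 samples of the series. All animals were C57BL/6 males, given as 8 weeks old in the series text, although the methods have them housed for some further weeks before use, with no transgene or drug named. In Dis mice 1 hindlimb was fixed for 7 days in a thermoplastic bandage, put on under isoflurane, while NC mice had no bandage. The remaining 3 samples (Con) are the free leg of bandaged mice and are given only as values beside the main comparison. Dis and NC differ in the bandage, the anaesthesia and the handling as well as in the use of the leg, and these cannot be told apart. The labels name the gastrocnemius as the tissue, but the methods name the tibialis anterior where RNA is described. The series text also calls Con immobilized, against the label of each Con sample, and gives the right leg as the immobilized one and the methods give the left. Samples were taken by their labels, and genes were kept where at least 3 of the 6 samples reached 0.3 TPM (a transcript level per length, with an equal total for each library). This left 15610 of the 55487 genes in the tables, of which 26743 lay above 0 in at least 1 of the 6 samples.

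Skeletal muscle adjusts its size and its fibre make-up to how much it is used. In unloaded muscle of rodents, ubiquitin ligases tag myofibrillar proteins, and the proteasome, a barrel-shaped protease with a regulatory cap, breaks them down, while autophagy carries organelles to the lysosome. Slow fibres use their own forms of myosin, troponin and the calcium pump and burn fat and ketones in mitochondria, whereas fast fibres rely more on glycolysis. Activity of the motor nerve and load on the sarcomere also set the levels of acetylcholine receptor subunits and of stretch-responsive proteins at the Z-disc.

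The deposited values hold no read totals, so library depth and counting error are unknown. Dis samples had 21498 to 21963 genes above 0 and NC samples had 20757 to 21434. Defining transcripts of fast muscle fibres were abundant in every sample, and Myh4, the myosin heavy chain of the fastest fibres, had 30000, 32610 and 32070 TPM in Dis, against 26060, 25330 and 26580 TPM in NC. Dis replicate 2 stood apart from every other sample. On the first principal component, which held 52.9% of the variance, Dis samples scored 3.92, 64 and 9.98 and NC samples scored -27.9, -25.7 and -24.3. The median standard deviation of a gene on the log2 scale was 0.235 among Dis samples, 0.158 without replicate 2, and 0.135 among NC samples. Dis replicate 2 was the highest Dis sample in 61.5% of the genes called higher below and the lowest in 59.2% of those called lower. Mitochondrially encoded genes took 19.3, 13.8 and 19.3% of all TPM in Dis, against 22.6, 23.2 and 20.1% in NC. The sources number the replicates of a group without naming the animals, so p-values measure only the spread between these samples. Several results are given with and without Dis replicate 2.

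Immobilized muscle had higher transcripts of most proteasome genes and of some genes of the neuromuscular junction, ribosome assembly and the clock than muscle of untreated mice, and lower transcripts of some slow-fibre and respiratory genes. In limma on log2(TPM + 0.5), 1017 genes (6.52% of those tested) were higher in Dis and 250 (1.6%) were lower at an adjusted p below 0.05. In a bulk sample, fewer cells of a type and less RNA per cell cannot be told apart. Most changes were modest. The median log2 fold change was 0.68 among the genes called higher and -0.87 among those called lower, and 172 and 97 of them reached 2-fold. A change of 4-fold or more was reached by 13 genes called higher and 6 called lower. Of the calls, 913 higher and 187 lower were protein-coding genes. Changes below are Dis minus NC on the log2(TPM + 0.5) scale, and parentheses give this log2 fold change with its standard error and the adjusted p of limma over all 15610 genes. Low genes therefore show smaller fold changes than their TPM ratio. Lists are described by their counts and medians, and list members beyond the rule for naming genes were chosen after their values were seen.

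The direction of the calls depended on how the samples were scaled. Across all genes kept, the median log2 fold change was 0.22 rather than 0, and 80.3% of the calls were higher in Dis. Median-ratio scaling, which makes the typical gene level across samples, shifted log2 fold changes by -0.24 before the pseudocount, and by less in low genes, and brought that median to 0.01. Under it 241 genes (1.54%) were higher and 386 (2.47%) lower, so that 38.4% of calls were higher, and 241 of each were also called in the values as deposited. A rise of less than about 0.24 can turn into a fall under it, and list medians below are to be read against the 0.22 of all genes. With 3 samples a group the calls also rested on single libraries. Leaving out Dis replicate 2 gave 1135 higher (7.27%) and 324 lower (2.08%), with 872 and 225 in common, and leaving out Dis replicate 3 gave 479 and 156. Leaving out any 1 NC sample left 0 calls in limma, with a smallest adjusted p of 0.0674, 0.0803 and 0.0642 without NC replicate 1, 2 and 3. In those fits 2461 to 2815 genes were higher and 620 to 630 lower at an unadjusted p below 0.05. Each of the 1267 called genes kept its direction, but these fits reuse the samples on which the genes were called, so this is not independent evidence.

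**Figure D1:**
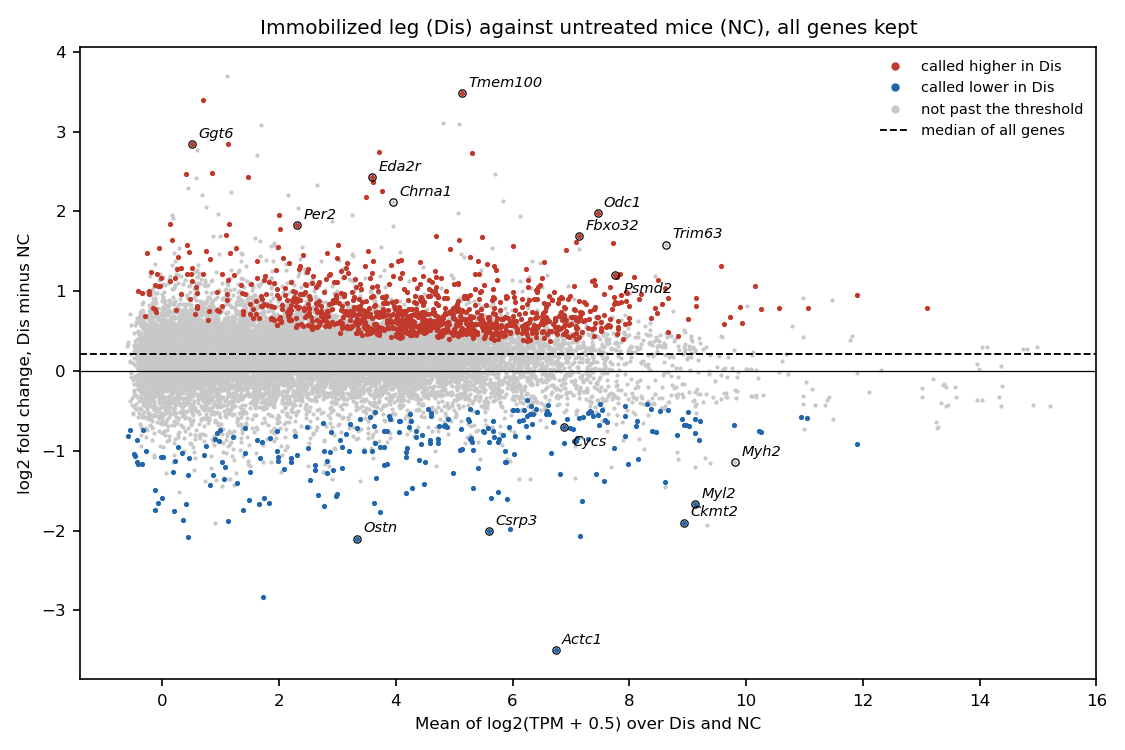
Each point is 1 of the 15610 genes kept, with its mean log2(TPM + 0.5) over Dis and NC on the x axis and its log2 fold change (Dis minus NC) on the y axis. Red points are the 1017 genes called higher in Dis, blue points the 250 called lower, grey points did not pass, and the dashed line marks the median of all genes at 0.22.

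**Figure D2:**
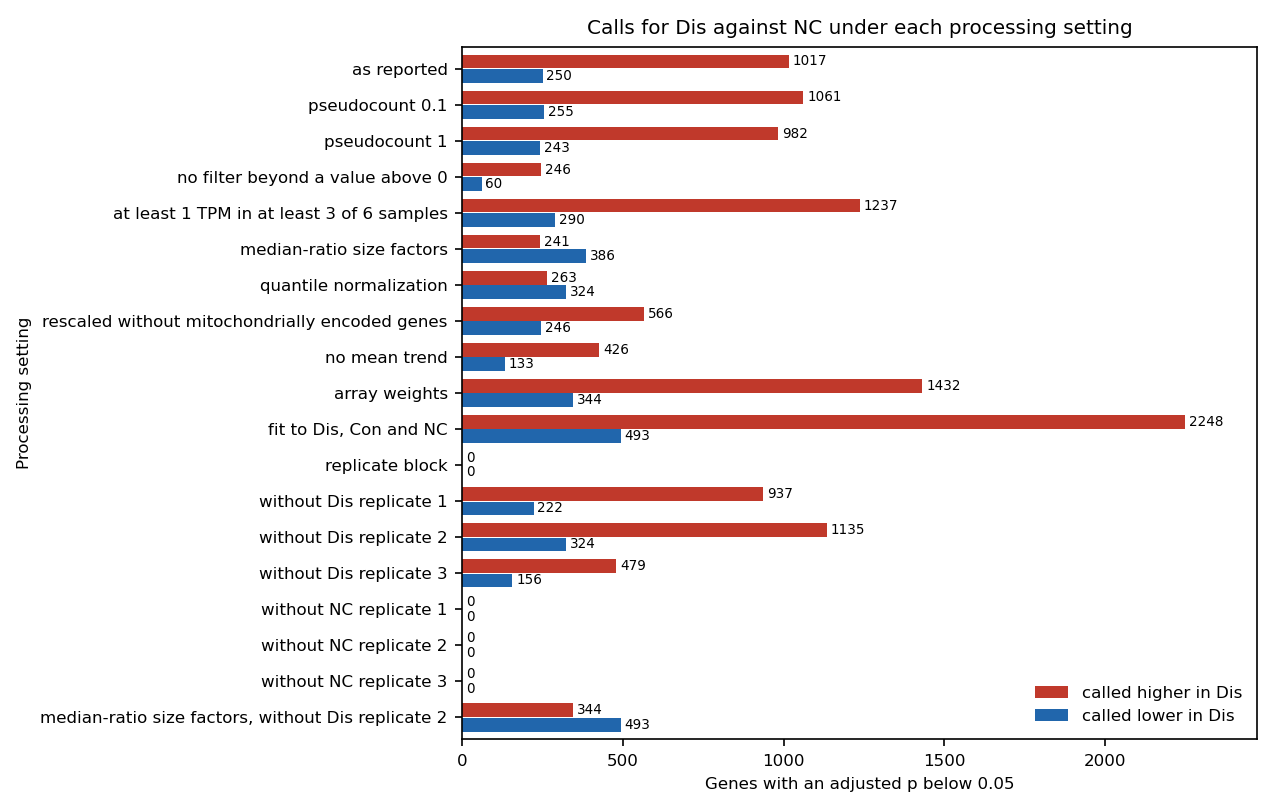
Bars count the genes called higher (red) and lower (blue) in Dis at an adjusted p below 0.05 under each processing setting. The counts as reported are 1017 and 250, median-ratio scaling gives 241 and 386, and the bars are at 0 without any 1 NC replicate and with the replicate number as a block.

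The gene with the largest rise among those with a curated symbol was Tmem100, a small membrane protein known from BMP signalling in blood vessels. Its gene lies on chromosome 11, 90030348 to 90036508 (plus strand, coordinates of the deposited tables, which match GRCm38). It had 70.5, 199.9 and 115 TPM in Dis, against 9.24, 8.15 and 13.4 TPM in NC, a log2 fold change of 3.48 ± 0.36 SE, adjusted p = 0.0145. Every Dis sample lay above every NC sample, which the rule for the 15 largest changes required, and replicate 2 was the highest. Arrdc3, an alpha-arrestin, had 63, 157 and 104 TPM in Dis, against 11.8, 16.2 and 16.8 TPM in NC (2.73 ± 0.32 SE, adjusted p = 0.0145). Eda2r, a receptor of the TNF receptor family and a known p53 target on chromosome X, 97333840 to 97377216, had 25.3, 43.6 and 18.8 TPM in Dis, against 4.74, 5.07 and 4.32 TPM in NC (2.43 ± 0.28 SE, adjusted p = 0.0145). The 3 NC samples of Eda2r lay close together, and the Dis samples spread more widely above them. Odc1, the rate-limiting enzyme of polyamine synthesis, had 363, 514 and 227 TPM in Dis, against 76.2, 92.1 and 96.6 TPM in NC (1.98 ± 0.28 SE, adjusted p = 0.0185).

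Ggt6, a member of the gamma-glutamyltransferase family, was near absent in untreated muscle, with 3.32, 4.64 and 2.36 TPM in Dis, against 0.0513, 0.0525 and 0 TPM in NC (2.84 ± 0.24 SE, adjusted p = 0.0145). Shroom3, an actin-binding protein, had 2.72, 8.98 and 2.0 TPM in Dis, against 0.201, 0.287 and 0.29 TPM in NC (2.48 ± 0.46 SE, adjusted p = 0.0284), with replicate 2 well above the other Dis samples. Plekhh1, a pleckstrin homology domain protein, had 9.47, 7.77 and 1.91 TPM in Dis, against 0.214, 0.501 and 0.243 TPM in NC (2.85 ± 0.51 SE, adjusted p = 0.0264), and here Dis replicate 3 was the lowest. The groups were apart for all 3 genes, as the rule for naming them required. All NC values of Ggt6 and Shroom3, and of Cxcl10 below, lay under 0.3 TPM, so these genes passed the filter through Dis alone. Ccdc136 and the copine Cpne2, a calcium-dependent membrane-binding protein, rose by 2.26 and 2.36 on the log2 scale, and Lgals3, which encodes galectin-3, by 1.96. Mir6948 (log2 fold change 1.85) lies within Acin1 on the same strand, so the pair may share reads. Cxcl10, a chemokine, had 5.84, 3.02 and 0.869 TPM in Dis, against 0.00726, 0.16 and 0.0332 TPM in NC (2.47 ± 0.51 SE, adjusted p = 0.035), but lies wholly within Art3 on the opposite strand, a gene with a mean of 352.6 TPM in Dis and 296.9 TPM in NC, and the strand setting of the counting is not given in the sources used here, although the methods name a strand-specific library kit. Ankrd1, a titin-binding protein that responds to stretch, had 16.1, 92.9 and 24.2 TPM in Dis, against 4.99, 6.36 and 2.91 TPM in NC (2.74 ± 0.61 SE, adjusted p = 0.0415), and it was led by Dis replicate 2, without which its adjusted p was 0.0175. Under median-ratio scaling Ankrd1, Cxcl10 and Mir6948 missed the threshold, at adjusted p = 0.0548, 0.0504 and 0.0884 in limma.

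**Figure D3:**
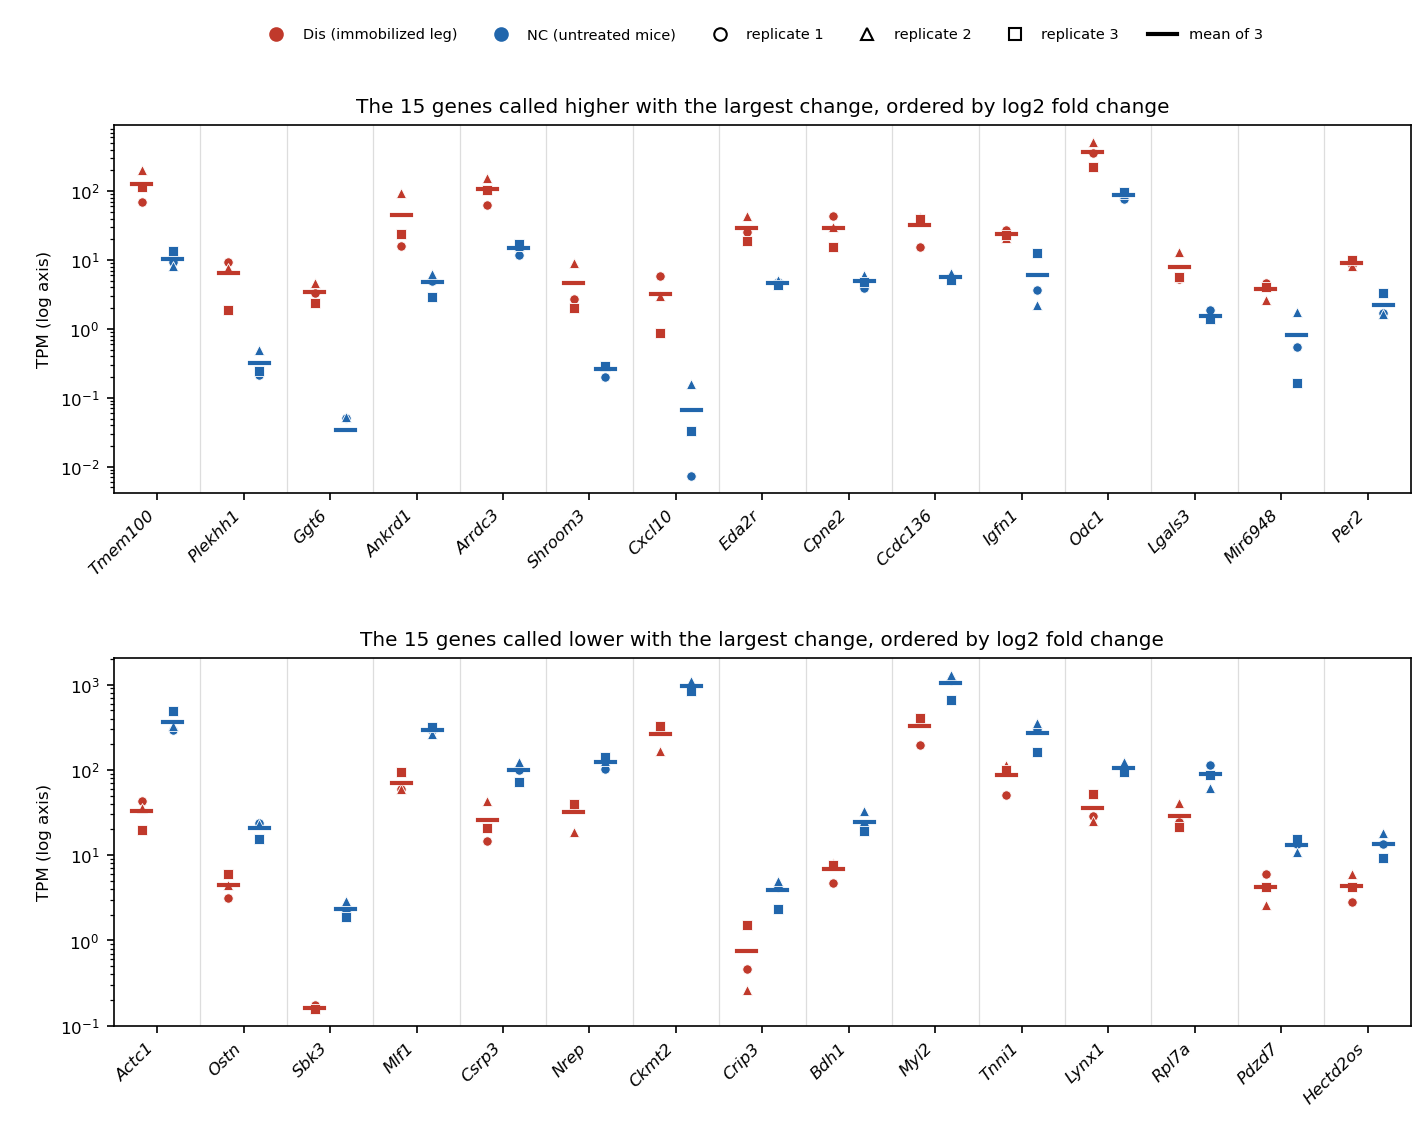
TPM on a log axis for the 15 genes with the largest rise and the 15 with the largest fall, with Dis in red left of NC in blue; circles, triangles and squares are replicates 1, 2 and 3 and bars are means of 3. The groups do not overlap in any of the 30 genes, which the rule for naming them required, and values of 0 (Ggt6 in NC replicate 3) are not drawn.

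Among the falls, that of Actc1, the cardiac form of alpha-actin on chromosome 2, 114047282 to 114053548, was the deepest. It had 43.2, 35.5 and 19.8 TPM in Dis, against 289.9, 324 and 492 TPM in NC, a log2 fold change of -3.50 ± 0.31 SE, adjusted p = 0.0145. Acta1, the skeletal form of alpha-actin, had 23460, 36790 and 22240 TPM in Dis, against 34380, 35200 and 38020 TPM in NC and did not pass (-0.42 ± 0.25 SE, adjusted p = 0.291), and its Dis replicate 2 lay inside the NC range. Ostn, which encodes the secreted muscle peptide musclin, had 3.11, 4.44 and 5.98 TPM in Dis, against 23.6, 22.9 and 15.7 TPM in NC (-2.10 ± 0.25 SE, adjusted p = 0.0145). Mlf1, myeloid leukemia factor 1, had 60.3, 58.9 and 93.2 TPM in Dis, against 291, 264 and 319 TPM in NC (-2.06 ± 0.19 SE, adjusted p = 0.0145). Sbk3, a kinase gene, was at 0.177, 0.156 and 0.157 TPM in Dis, against 2.17, 2.94 and 1.88 TPM in NC (-2.08 ± 0.19 SE, adjusted p = 0.0145). All Dis values of Sbk3 lay under 0.3 TPM, so it passed the filter through NC alone, and the rule for naming it required groups apart. Csrp3, the muscle LIM protein of the Z-disc on chromosome 7, 48830398 to 48848033, had 14.5, 43 and 20.8 TPM in Dis, against 100.5, 124 and 71.7 TPM in NC (-2.01 ± 0.38 SE, adjusted p = 0.0297). Nrep fell by 1.98 on the log2 scale, Lynx1, a modulator of nicotinic receptors, by 1.61, Crip3 by 1.88 and Pdzd7 by 1.57. Rpl7a (-1.60) shares sequence with processed copies elsewhere in the genome, and Hectd2os (-1.55) overlaps Hectd2 on the opposite strand, so both values are uncertain.

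A few genes without a curated symbol changed as much, and they were chosen after their values were seen. Gm20716, listed at 0 in every NC and Con sample, had 3.86, 4.74 and 5.95 TPM in Dis. It spans Adnp and Dpm1 on the same strand, so the value depends on how transcripts were assigned among the 3 gene models. The lincRNA Gm34455 had 1.28, 0.418 and 0.662 TPM in Dis, against 8.29, 7.92 and 8.82 TPM in NC (-2.83 ± 0.25 SE, adjusted p = 0.0145). Gm34474, Gm44717 and Gm47328, also lincRNAs, were listed at 0 in all 3 Dis samples and at 0.485 to 2.34 TPM in NC. Cd300ld2 and Gm16172 were listed at 0 in NC and at 0.291 to 0.955 TPM in Dis.

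Proteasome genes had the largest share of rises among the gene lists. Of 36 genes for proteasome subunits and assembly factors, 27 rose, against 6.52% of all genes, and 0 fell in limma (0 at an unadjusted p below 0.05). The median log2 fold change was 0.67, and 31 of the 36 had every Dis sample above every NC sample, against 32% of all genes. Summed over the list, TPM came to 5091, 6451 and 5440 in Dis, against 3333, 3250 and 3407 in NC. Replicate 2 was the highest Dis sample, yet 28 members passed without it. Under median-ratio scaling 15 passed, the median was 0.43, and 0 were lower in limma.

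Genes of both the core and the cap rose. All 7 genes of the 20S beta ring, which holds the catalytic sites, and all 6 ATPases of the 19S cap passed, with medians of 0.63 and 0.81. Of the other 19S subunits 10 of 11 passed, of the 20S alpha ring 3 of 7, and of the 4 assembly factors 1. Psmd2, a scaffold of the cap, had 280.1, 373 and 336 TPM in Dis, against 136, 140.1 and 149 TPM in NC (1.21 ± 0.13 SE, adjusted p = 0.0145). Psmd4, a ubiquitin receptor of the cap, had 253, 436 and 328 TPM in Dis, against 148, 145 and 145 TPM in NC (1.18 ± 0.19 SE, adjusted p = 0.021). Psma7 of the alpha ring had 209.8, 297 and 240.0 TPM in Dis, against 122, 113 and 114 TPM in NC (1.08 ± 0.14 SE, adjusted p = 0.016). For each of these 3 genes the lowest Dis sample lay well above the highest NC sample. Psma1 and Psma2, also of the alpha ring, did not pass, with log2 fold changes of 0.22 and 0.48. The activator Psme4 had a log2 fold change of 0.18 and did not pass.

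In mammalian cells the transcription factors Nfe2l1 and Nfe2l2 bind the antioxidant response element, and Nfe2l1 is known for driving proteasome subunit genes through it. The core of that element (TGACNNNGC, searched on both strands in the 250 bases before each RefSeq start) was found in 10.1% of 27025 promoters and in 4 of the 29 proteasome genes with a promoter in the table. These 4 stretches are shown because all 4 genes rose, with the motif in capitals and each read 5′ to 3′ on the strand of its gene (GRCm38.p6, RefSeq).
Psmb5 (chr14:54618004-54618072, minus strand): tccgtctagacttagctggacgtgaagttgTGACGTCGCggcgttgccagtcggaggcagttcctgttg
Psmb6 (chr11:70525318-70525356, plus strand): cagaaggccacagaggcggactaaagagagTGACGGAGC
Psmc6 (chr14:45329574-45329635, plus strand): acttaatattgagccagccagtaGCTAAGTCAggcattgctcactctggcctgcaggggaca
Psmd12 (chr11:107479278-107479319, plus strand): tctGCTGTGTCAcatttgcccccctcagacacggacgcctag
The motif began 47, 9, 227 and 247 bases before the start of Psmb5, Psmb6, Psmc6 and Psmd12, and it lay on the opposite strand in the last pair. These genes rose by 0.54, 0.56, 0.69 and 0.66 on the log2 scale. At 13.8% of the list against 12.1% of all genes kept with a promoter, the motif was about as frequent in proteasome genes as elsewhere, and a match of letters is not a binding site. Nfe2l1 itself had 331, 423 and 328 TPM in Dis, against 298, 358 and 276 TPM in NC and did not pass (0.21 ± 0.15 SE, adjusted p = 0.358). Nfe2l2 had 37.6, 79.5 and 44.1 TPM in Dis, against 27.4, 28.7 and 27.3 TPM in NC and did not pass (0.86 ± 0.26 SE, adjusted p = 0.0767).

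Ubiquitin and its ligases were less uniform. Ubb, a polyubiquitin gene, had 1270, 2248 and 1583 TPM in Dis, against 814, 747 and 806 TPM in NC (1.07 ± 0.20 SE, adjusted p = 0.0297). Of 21 atrophy-related ligases and adaptors 3 rose, against 6.52% of all genes, none fell in limma (1 at an unadjusted p below 0.05), and the median was 0.31. Fbxo32, the muscle ligase known as atrogin-1, had 177, 486 and 189.9 TPM in Dis, against 93.2, 80.6 and 63.9 TPM in NC (1.69 ± 0.37 SE, adjusted p = 0.0415), and under median-ratio scaling its adjusted p was 0.0582. Trim63, the muscle ligase known as MuRF1, had 492, 1623 and 406 TPM in Dis, against 233, 222 and 232 TPM in NC and did not pass (1.58 ± 0.47 SE, adjusted p = 0.0769). Both ligases were highest in Dis replicate 2, and all Dis samples lay above all NC samples. Without that replicate Trim63 had a log2 fold change of 0.96 and an adjusted p of 0.0122. Nedd4 and Cblb, ligases that act on membrane receptors and on insulin signalling, rose by 0.50 and 0.70. Under median-ratio scaling 0 of the 21 were called higher and 1 lower.

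Autophagy transcripts were higher by smaller amounts. Of 30 genes of the machinery 6 rose, against 6.52% of all genes, and 0 fell in limma (22 higher and 0 lower at an unadjusted p below 0.05). The median was 0.38, and 23 had Dis above NC throughout, against 32% of all genes. Map1lc3a, a form of LC3 that coats autophagosomes, had 384, 323 and 310.2 TPM in Dis, against 197, 182 and 197 TPM in NC (0.81 ± 0.11 SE, adjusted p = 0.0185). Sqstm1, the cargo receptor p62, had 656, 1071 and 664 TPM in Dis, against 407, 387 and 440.0 TPM in NC (0.92 ± 0.20 SE, adjusted p = 0.0393). Atg7, an enzyme of LC3 conjugation, had 6.4, 7.62 and 6.11 TPM in Dis, against 2.89, 3.5 and 3.19 TPM in NC (0.96 ± 0.15 SE, adjusted p = 0.0197). Groups were apart in all 3, and replicate 2 stood well above the other Dis samples for Sqstm1 only. Nbr1 and Bnip3l, which take part in selective autophagy, rose by 0.61 and 0.47. The kinases Ulk1 and Ulk2 did not pass (0.54 and -0.13). Only Atg7 of the 30 remained called under median-ratio scaling. Of 21 lysosomal genes 3 rose, against 6.52% of all genes, and 0 fell in limma (10 and 0 at an unadjusted p below 0.05). The rises were Gaa, which degrades glycogen, and the membrane proteins Scarb2 and Lamp1, at 0.80, 0.67 and 0.49. Under median-ratio scaling 0 of the 21 passed in limma, and the median of 0.49 became 0.26 without Dis replicate 2. The protease genes Ctsl and Ctsb had 1.18 and 0.21 and did not pass. Among 9 calpain genes 2 rose and 1 fell, against 6.52% and 1.6% of all genes, with 2 and 1 under median-ratio scaling. The rises were Capn2 and the small subunit Capns1, at 0.91 and 0.78. Capn3, the muscle-specific calpain, fell to 71.9, 71.2 and 69.7 TPM in Dis, against 96.9, 102 and 97.2 TPM in NC (-0.47 ± 0.08 SE, adjusted p = 0.0261).

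**Figure D4:**
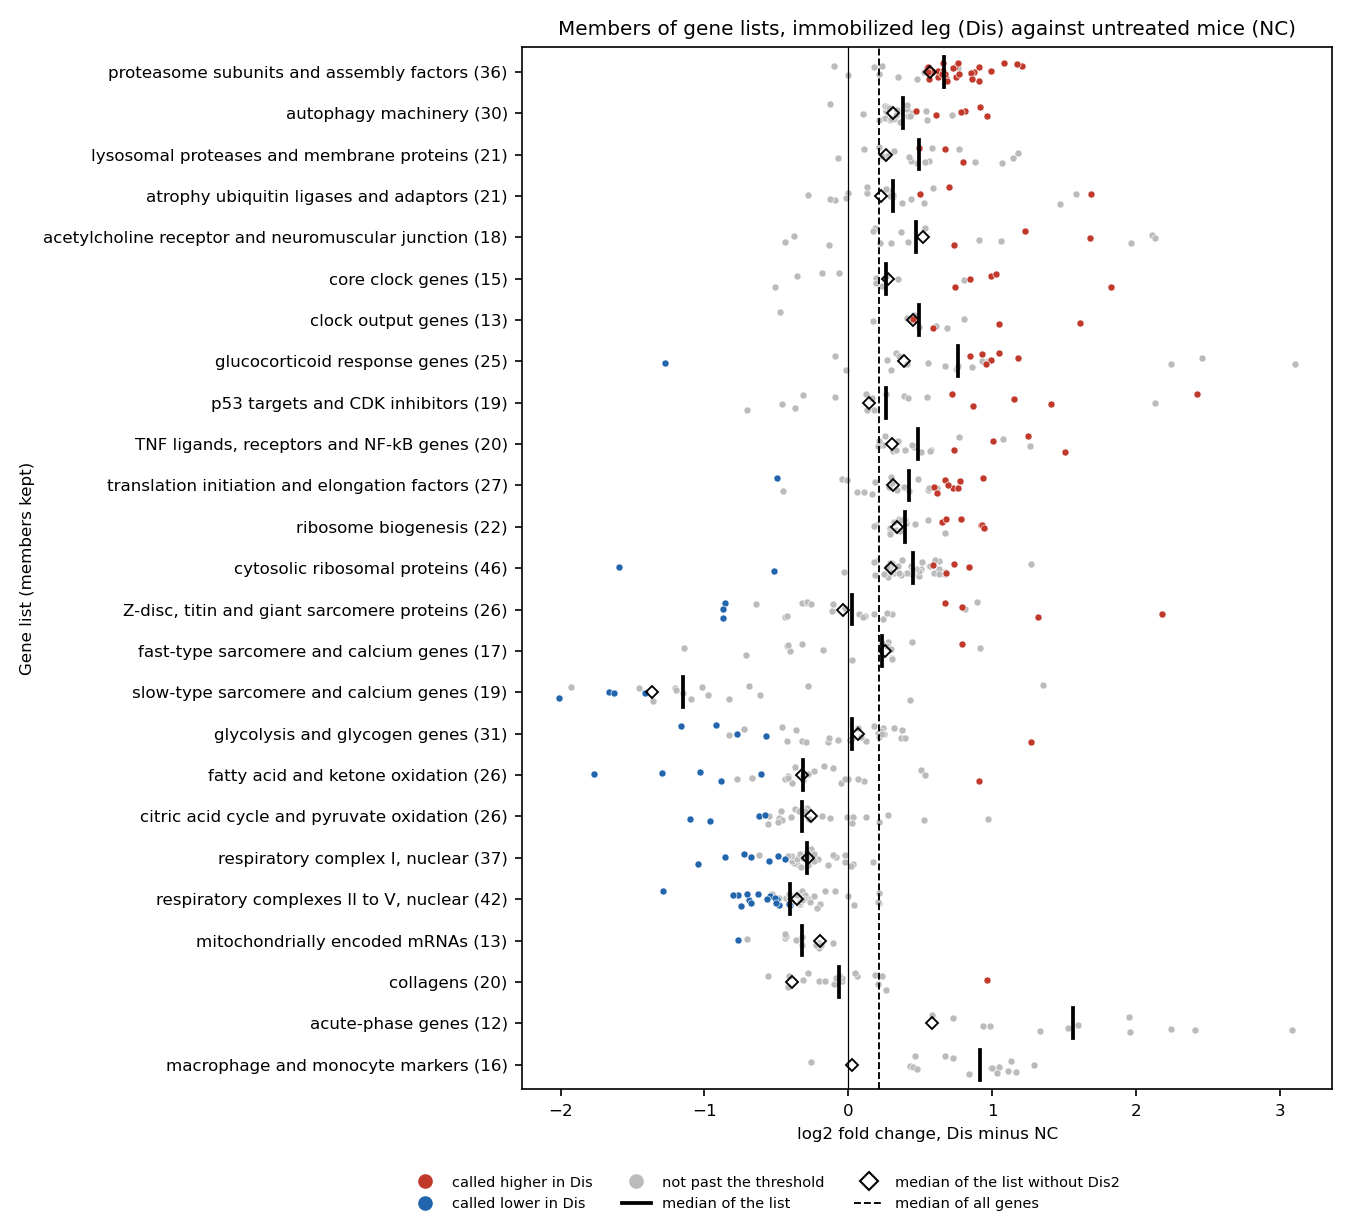
Each point is the log2 fold change (Dis minus NC) of 1 kept member of a gene list, red where called higher, blue where called lower and grey where not past the threshold; the bar is the list's median, the diamond its median without Dis replicate 2, and the dashed line the 0.22 of all genes. Most proteasome members lie to the right and respiratory complex and slow-type sarcomere members to the left, while the medians of acute-phase genes and macrophage markers move from 1.56 and 0.91 to 0.58 and 0.02 without Dis replicate 2.

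Many nuclear genes of mitochondrial respiration were lower in Dis. Of 79 kept genes for complexes I to V and cytochrome c, 23 fell, against 1.6% of all genes, and 0 rose in limma (0 at an unadjusted p below 0.05). In 60 of the 79 every Dis sample lay below every NC sample, against 6.81% of all genes. The median was -0.34, against 0.22 over all genes. Complex I had 7 of 37 called lower, complex II 3 of 4, complex III 3 of 9, complex IV 3 of 13 and complex V 6 of 15, with medians of -0.29, -0.55, -0.48, -0.29 and -0.40. Median-ratio scaling raised the calls to 12 of 37 for complex I and to 21 of 42 for the rest. Complexes II to V summed to 16010, 14080 and 15810 TPM in Dis, against 19320, 20070 and 19800 TPM in NC.

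Cox7a1, the muscle form of a complex IV subunit, fell most, with 131, 77.3 and 129 TPM in Dis, against 265, 263 and 275 TPM in NC (-1.29 ± 0.20 SE, adjusted p = 0.0203). Ndufb2 of complex I had 49.7, 38.8 and 46.3 TPM in Dis, against 108, 80.8 and 91 TPM in NC (-1.04 ± 0.14 SE, adjusted p = 0.0185). Sdhb, the iron-sulfur subunit of complex II, had 311, 205 and 266 TPM in Dis, against 422, 455 and 419 TPM in NC (-0.75 ± 0.16 SE, adjusted p = 0.0375). Dis replicate 2 was the lowest sample for all 3, and the groups did not overlap. Cycs, cytochrome c, had 106, 79.8 and 92.5 TPM in Dis, against 144, 159 and 148 TPM in NC (-0.71 ± 0.12 SE, adjusted p = 0.0252). Ndufa1 and Ndufa2 of complex I had log2 fold changes of -0.02 and -0.10, and Sdha, the catalytic subunit of complex II, had -0.32, none of them past the threshold. The 13 mRNAs of the mitochondrial genome had a median of -0.32, and only mt-Nd3 passed (-0.76 ± 0.18 SE, adjusted p = 0.0484). These abundant mRNAs varied between libraries, as mt-Nd1 shows with 20510, 15520 and 19500 TPM in Dis, against 23610, 24110 and 21400 TPM in NC.

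Estrogen-related receptor alpha, the product of Esrra, is a main activator of respiratory genes in muscle, and Esrra fell, with 58.8, 49.4 and 66.5 TPM in Dis, against 86.2, 92.6 and 87.6 TPM in NC (-0.61 ± 0.13 SE, adjusted p = 0.0345). The binding sequence of these receptors (TNAAGGTCA, both strands, same promoter window) was found in 1.14% of all promoters and 0.647% of those of kept genes. It was present in 1 of 33 complex I promoters and 1 of 33 promoters of complexes II to V. A match of letters is not a binding site, and a link between Esrra and the respiratory genes was not tested. The match in the promoter of Atp5g3, a gene for the c ring of ATP synthase, is shown because that gene fell. Its motif is in capitals on the opposite strand and begins 52 bases before the start.
Atp5g3 (chr2:73911340-73911408, minus strand): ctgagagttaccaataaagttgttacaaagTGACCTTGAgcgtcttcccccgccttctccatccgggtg
Atp5g3 had 332, 314 and 377 TPM in Dis, against 570.0, 593 and 619 TPM in NC (-0.80 ± 0.11 SE, adjusted p = 0.0177). Genes of the coactivators Ppargc1a and Ppargc1b did not pass, with log2 fold changes of -0.07 and -0.05, and Dis samples of both lay on either side of NC. Nrip1, a corepressor of oxidative genes, rose to 10.8, 15 and 8.84 TPM in Dis, against 3.42, 3.47 and 4.29 TPM in NC (1.48 ± 0.20 SE, adjusted p = 0.0185). Of 26 genes for mitochondrial ribosomal proteins and import only Mrpl12 fell (-0.69 ± 0.10 SE, adjusted p = 0.0194), against 1.6% of all genes. In limma 0 rose (1 higher and 3 lower at an unadjusted p below 0.05), and the median was 0.04.

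Fuel oxidation followed the same direction. Citric acid cycle and pyruvate oxidation genes numbered 26, of which 4 fell, against 1.6% of all genes, and 0 rose in limma (15 lower and 1 higher at an unadjusted p below 0.05). Their median was -0.32. Idh2, the mitochondrial NADP-dependent isocitrate dehydrogenase, had 154, 229.8 and 204 TPM in Dis, against 441, 499 and 327 TPM in NC (-1.10 ± 0.20 SE, adjusted p = 0.0277). Mdh1 and Mdh2, the malate dehydrogenases of cytosol and mitochondria, fell by 0.96 and 0.62 on the log2 scale, and Mpc2 of the pyruvate carrier by 0.58. Cs, at the entry of the cycle, had -0.48 and did not pass. Fat and ketone oxidation had 5 falls and 1 rise among 26 genes, against 1.6% and 6.52% of all genes. Bdh1 and Oxct1 of ketone use were among the falls. Bdh1, which oxidizes beta-hydroxybutyrate, had 4.76, 8.16 and 7.71 TPM in Dis, against 21.9, 33 and 19.1 TPM in NC (-1.77 ± 0.26 SE, adjusted p = 0.0194). Oxct1, the rate-limiting enzyme of ketone use, had 92.2, 60.0 and 64.8 TPM in Dis, against 164, 204 and 161 TPM in NC (-1.29 ± 0.18 SE, adjusted p = 0.0185). Neither gene showed overlap between groups, which the rule for the 15 largest changes required of Bdh1. Acaa2, Hadhb and Hadh of beta-oxidation fell by 1.03, 0.88 and 0.61 on the log2 scale, and Hadh had an adjusted p of 0.0501 without Dis replicate 2. Cpt1a, the form of carnitine palmitoyltransferase typical of liver, rose by 0.91, and the muscle form Cpt1b had -0.42 and did not pass. Fabp3, the fatty acid carrier of oxidative muscle, had 247, 286 and 198 TPM in Dis, against 519.9, 890.4 and 539.9 TPM in NC (-1.39 ± 0.23 SE, adjusted p = 0.0235), while the mitochondrial carrier gene Ucp3 and the lipoprotein receptor gene Vldlr rose by 1.07 and 1.16. Ckmt2, the creatine kinase of muscle mitochondria, had 297, 165 and 331 TPM in Dis, against 898, 1114 and 849 TPM in NC (-1.90 ± 0.26 SE, adjusted p = 0.0185), and Ckm, its abundant cytosolic counterpart, had 17330, 17790 and 14060 TPM in Dis, against 15350, 13620 and 17280 TPM in NC (0.09 ± 0.19 SE, adjusted p = 0.779).

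Of 31 genes of glycolysis and glycogen 1 rose and 4 fell, against 6.52% and 1.6% of all genes, with 3 higher and 9 lower at an unadjusted p below 0.05. The median was 0.03, and under median-ratio scaling 1 was higher and 3 lower with a median of -0.21. Stbd1, which tethers glycogen to membranes, rose to 89.2, 93.1 and 64.3 TPM in Dis, against 30.4, 34 and 35.7 TPM in NC (1.27 ± 0.16 SE, adjusted p = 0.0154). Ldhb, the lactate dehydrogenase of oxidative tissue, had 147, 159 and 206 TPM in Dis, against 368, 494 and 299 TPM in NC (-1.16 ± 0.21 SE, adjusted p = 0.026). Pgk1, Ldha and Eno3 fell by 0.78, 0.57 and 0.92 on the log2 scale, with all Dis samples below all NC samples. Pfkm and Aldoa had -0.14 and 0.07 and did not pass. Of 19 genes of glucose transport and AMPK 1 rose, against 6.52% of all genes, and 0 fell in limma. The rise was that of Tbc1d1, a brake on glucose transporter traffic. It had 23, 24.2 and 34.8 TPM in Dis, against 9.09, 11.1 and 9.83 TPM in NC (1.39 ± 0.18 SE, adjusted p = 0.016). The glucose transporter genes Slc2a4 and Slc2a1 had -0.52 and 0.04 and did not pass.

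Some slow-fibre genes fell, and few fast-fibre genes changed. Of 19 slow-type sarcomere and calcium genes 4 fell, against 1.6% of all genes, and 0 rose in limma (11 lower and 1 higher at an unadjusted p below 0.05), with a median of -1.15. The count was 6 under median-ratio scaling and 7 without Dis replicate 2. Myl2, the slow regulatory light chain, had 198, 379.6 and 407 TPM in Dis, against 1135, 1291 and 667 TPM in NC (-1.66 ± 0.34 SE, adjusted p = 0.0342). Tnni1, slow troponin I, had 50.6, 114 and 98.9 TPM in Dis, against 299, 349.8 and 163 TPM in NC (-1.63 ± 0.37 SE, adjusted p = 0.0441). Casq2, the slow and cardiac calsequestrin, had 12.1, 11.5 and 16.4 TPM in Dis, against 36.2, 49.3 and 25.9 TPM in NC (-1.42 ± 0.24 SE, adjusted p = 0.0248). Dis lay below NC in each of these genes, which the rule for the 15 largest changes required of Myl2 and Tnni1. NC replicate 3 was the lowest NC sample every time. Myh7, the slow myosin heavy chain, had 183, 731 and 602 TPM in Dis, against 972, 1347 and 596 TPM in NC, with overlapping groups, and did not pass (-1.09 ± 0.53 SE, adjusted p = 0.213). Slow-type genes summed to 2303, 5648 and 5253 TPM in Dis, against 9135, 11930 and 5601 TPM in NC, so that Dis replicate 2 and NC replicate 3 were about level. The soleus, a slow muscle, lies against the gastrocnemius, and whether the dissection took in equal parts of it was not tested.

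Among 17 fast-type genes 1 rose, against 6.52% of all genes, and 0 fell in limma (2 higher and 3 lower at an unadjusted p below 0.05). The median was 0.24, near the 0.22 of all genes, and 0 passed in limma under median-ratio scaling. Actn3, the alpha-actinin of fast fibres, had 13740, 11290 and 9909 TPM in Dis, against 6601, 5990 and 7548 TPM in NC (0.79 ± 0.19 SE, adjusted p = 0.0465), and under median-ratio scaling its adjusted p was 0.224. Myh2, the myosin of fast oxidative fibres, had 505, 595 and 734 TPM in Dis, against 1193, 2182 and 904 TPM in NC and did not pass (-1.14 ± 0.31 SE, adjusted p = 0.0661), and Myh1 had 1740, 2716 and 4532 TPM in Dis, against 1314, 2421 and 996 TPM in NC (0.92 ± 0.42 SE, adjusted p = 0.189). Embryonic and cardiac sarcomere genes went both ways. Tnnt2, cardiac troponin T, and Myl4, an embryonic light chain, rose by 1.17 and 0.88, as did Ankrd1, while Actc1 fell. Embryonic Myh3 had 1.01, 1.7 and 2.49 TPM in Dis, against 2.14, 5.25 and 1.16 TPM in NC and neonatal Myh8 had 257, 316 and 225 TPM in Dis, against 223, 192 and 202 TPM in NC, and neither passed.

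At the Z-disc and along the filaments, 4 of 26 genes rose and 3 fell, against 6.52% and 1.6% of all genes, with a median of 0.03. Under median-ratio scaling 1 was higher and 3 lower, with a median of -0.21. Pdlim3, a binder of alpha-actinin, had 1082, 1593 and 1016 TPM in Dis, against 469, 498 and 482 TPM in NC (1.32 ± 0.18 SE, adjusted p = 0.0177). Neb, the nebulin ruler of the thin filament, had 1951, 1919 and 2119 TPM in Dis, against 1201, 1012 and 1255 TPM in NC (0.79 ± 0.13 SE, adjusted p = 0.0212). Under median-ratio scaling Neb had an adjusted p of 0.0899 in limma. Igfn1, a Z-disc protein, had 27.2, 20.5 and 22.9 TPM in Dis, against 3.62, 2.24 and 12.5 TPM in NC (2.18 ± 0.51 SE, adjusted p = 0.0468), and NC replicate 3 came closest to Dis. Its adjusted p was 0.0542 without Dis replicate 2 and 0.0853 under median-ratio scaling. Groups were apart for all 3 genes, which the rule for the 15 largest changes required of Igfn1. Myom1 of the M-band rose by 0.67. The small heat shock protein Cryab and the LIM proteins Fhl2 and Fhl3 fell by 0.87, 0.87 and 0.86 on the log2 scale. Ttn, titin, had 322, 244 and 306 TPM in Dis, against 238, 241 and 220.5 TPM in NC and did not pass (0.31 ± 0.13 SE, adjusted p = 0.157). Of 19 genes of the triad, where the action potential releases calcium, 3 rose, against 6.52% of all genes, and 0 fell in limma (5 higher and 2 lower at an unadjusted p below 0.05). They were the release channel Ryr1, its partner Trdn and the calcium channel subunit Cacng1, at 0.60, 0.82 and 0.79. None of these triad genes passed under median-ratio scaling, where 1 of the 19 was lower. Of 16 dystrophin complex genes 0 passed in limma, with 3 higher and 3 lower at an unadjusted p below 0.05. Of 23 genes of membrane channels and pumps 1 rose and 2 fell, against 6.52% and 1.6% of all genes, with 1 and 4 under median-ratio scaling. The potassium channel gene Kcnq5 rose by 1.20, and Kcna7 and Kcng4 fell by 1.01 and 0.96 on the log2 scale.

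The methyltransferase Mettl21c, which is found in muscle and modifies the ATPase Vcp and the chaperone Hspa8, was lower, with 39.8, 19.6 and 39.1 TPM in Dis, against 91, 93.8 and 85.9 TPM in NC (-1.51 ± 0.26 SE, adjusted p = 0.0244). Its relative Mettl21e had 1.36, 0.455 and 1.24 TPM in Dis, against 2.01, 2.42 and 2.96 TPM in NC and did not pass (-1.01 ± 0.29 SE, adjusted p = 0.0689). Vcp rose by 0.41 and Hspa8 fell by 0.60 on the log2 scale.

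Neuromuscular junction genes had a median log2 fold change of 0.47 over 18 genes. In limma 3 rose, against 6.52% of all genes, and 0 fell (10 and 0 at an unadjusted p below 0.05), and 12 of 18 had Dis above NC throughout, against 32% of all genes. Chrnb1, a subunit of the muscle acetylcholine receptor, had 79.7, 95.9 and 65.5 TPM in Dis, against 21.7, 28.1 and 23.8 TPM in NC (1.68 ± 0.16 SE, adjusted p = 0.0145). Musk, the kinase that clusters the receptor, had 18.1, 13.1 and 10.1 TPM in Dis, against 6.12, 5.5 and 4.71 TPM in NC (1.23 ± 0.22 SE, adjusted p = 0.0257). Chrne, the adult receptor subunit, had 30.8, 28.8 and 37.5 TPM in Dis, against 19.2, 17.9 and 20.4 TPM in NC (0.73 ± 0.13 SE, adjusted p = 0.0252). Each Dis sample exceeded each NC sample for these genes, and replicate 2 was the highest Dis sample for Chrnb1 only. Chrna1, the subunit that binds acetylcholine, had 23.3, 85 and 16.1 TPM in Dis, against 6.55, 8.19 and 6.27 TPM in NC and did not pass (2.11 ± 0.55 SE, adjusted p = 0.0567), but passed without Dis replicate 2 at a log2 fold change of 1.41 and an adjusted p of 0.0136. The count was 1 under median-ratio scaling and 6 without Dis replicate 2. Chrng, the fetal receptor subunit that returns in denervated muscle, was below the filter. Markers of Schwann cells, which wrap the nerve in the muscle, summed to 204.2, 160.6 and 393.9 TPM in Dis, against 106.3, 134.7 and 179.3 TPM in NC, and 0 of 11 passed in limma (2 higher at an unadjusted p below 0.05). The part of nerve tissue in the junction values was not tested.

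The deacetylase Hdac4, which links nerve activity to junction genes in mouse muscle, had 25.3, 30.2 and 23.2 TPM in Dis, against 8.91, 10.4 and 9.96 TPM in NC (1.38 ± 0.13 SE, adjusted p = 0.0145). Hdac5, of the same class, had 38.7, 38.5 and 53.8 TPM in Dis, against 43.6, 46.2 and 41.6 TPM in NC and did not pass. Of 23 genes of this regulatory group 4 rose and 1 fell, against 6.52% and 1.6% of all genes. Camk2b, a calcium-activated kinase, Ppp3ca, the catalytic subunit of calcineurin, and the transcription factor Mef2a rose by 0.86, 0.64 and 0.56. Rcan2, a calcineurin inhibitor, fell to 23.8, 22.5 and 25.2 TPM in Dis, against 46.4, 64.2 and 36.8 TPM in NC (-0.99 ± 0.19 SE, adjusted p = 0.0312). Under median-ratio scaling Hdac4 and Rcan2 remained called.

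Satellite cells are the stem cells of muscle, and their marker Pax7 was low in all samples and did not pass, with 1.36, 1.42 and 1.19 TPM in Dis, against 1.65, 1.82 and 1.14 TPM in NC. Of 20 genes of satellite cells and myogenesis 2 rose, against 6.52% of all genes, and 0 fell in limma (6 and 1 at an unadjusted p below 0.05). The median was 0.15, and 1 was higher under median-ratio scaling. The rises were Cdh15, an adhesion molecule of myogenic cells, and Itga7, the muscle laminin receptor subunit, at 1.16 and 0.90. Without Dis replicate 2 the adjusted p of Itga7 was 0.063. Of 9 kept cell cycle genes and 15 imprinted growth genes 0 passed in limma, with 1 higher and 0 lower at an unadjusted p below 0.05 in each list, and Mki67, Top2a and Cdk1 were below the filter. Of 19 p53 targets and cell cycle inhibitors 5 rose, against 6.52% of all genes, and 0 fell in limma (8 and 1 at an unadjusted p below 0.05). Under median-ratio scaling 4 of the 5 also rose. Beside Eda2r, Trp53inp1, which acts in p53 signalling and autophagy, had 10.6, 11.7 and 15.4 TPM in Dis, against 4.54, 4.26 and 4.26 TPM in NC (1.41 ± 0.16 SE, adjusted p = 0.0145). Rb1, the retinoblastoma protein, had 15.8, 13.6 and 13.5 TPM in Dis, against 6.07, 6.52 and 5.85 TPM in NC (1.15 ± 0.12 SE, adjusted p = 0.0145). Both were clear of NC in every Dis sample. Phlda3 and Bbc3, p53 targets that act against Akt and for cell death, rose by 0.87 and 0.72, while Cdkn1a had 18, 32 and 20.2 TPM in Dis, against 17, 15.4 and 19.5 TPM in NC and did not pass.

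Of 22 insulin and IGF-1 pathway genes 4 rose and 1 fell, against 6.52% and 1.6% of all genes, and 1 was higher and 1 lower under median-ratio scaling. Igfbp5, an IGF-binding protein, had 551, 824 and 389.7 TPM in Dis, against 269.8, 269 and 278 TPM in NC (1.04 ± 0.25 SE, adjusted p = 0.0467). Akt1, a kinase of the pathway, had 73.9, 105 and 72.1 TPM in Dis, against 40.9, 46.6 and 42 TPM in NC (0.93 ± 0.16 SE, adjusted p = 0.0248). The Dis samples were higher throughout for both genes, with replicate 2 leading. Pik3r1, a regulatory subunit of phosphoinositide 3-kinase, and Inpp5k, a phosphatase that restrains the pathway, rose by 0.85 and 0.62. Igfbp6 fell by 0.67 on the log2 scale, and Igf1 and Igf1r had 0.69 and 0.55 and did not pass. Of 24 FoxO and mTOR regulators 4 rose, against 6.52% of all genes, and 0 fell in limma (12 higher and 1 lower at an unadjusted p below 0.05). All 4, Deptor, Ddit4, Castor2 and Tsc2, are known as negative regulators of mTOR signalling, at 1.05, 1.05, 0.94 and 0.46. Of the 24, 2 passed under median-ratio scaling, and Ddit4 had an adjusted p of 0.0603 without Dis replicate 2. Deptor had 41.4, 35.2 and 33.1 TPM in Dis, against 19.2, 15.8 and 17.2 TPM in NC. The FoxO genes Foxo1 and Foxo3 had 0.52 and 0.27 and did not pass. Of 21 genes of myostatin, activin and TGF-beta signalling 5 rose, against 6.52% of all genes, and 0 fell in limma (10 and 0 at an unadjusted p below 0.05). Without Dis replicate 2 the rises numbered 8. Mstn, myostatin itself, had 52.3, 50.9 and 53.5 TPM in Dis, against 38.4, 37.8 and 41 TPM in NC (0.42 ± 0.09 SE, adjusted p = 0.0392), a change that median-ratio scaling reduced to an adjusted p of 0.372. The receptor genes Tgfbr1, Tgfbr3 and Acvr1b rose by 1.02, 0.98 and 0.79, and the ligand Tgfb2 by 0.70. Only Tgfbr1 of the 21 remained called under median-ratio scaling (adjusted p = 0.0293). Of 17 BMP pathway genes 0 passed in limma, with 2 higher and 0 lower at an unadjusted p below 0.05.

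Of 22 ribosome biogenesis genes 6 rose, against 6.52% of all genes, and 0 fell in limma (17 and 0 at an unadjusted p below 0.05), and 21 had Dis above NC throughout, against 32% of all genes. Ncl, nucleolin, had 78.5, 99.1 and 91.4 TPM in Dis, against 46.9, 50.8 and 42.8 TPM in NC (0.93 ± 0.12 SE, adjusted p = 0.0169). Wdr43 and Nop14, factors of the small subunit, rose by 0.94 and 0.93. The count was 3 under median-ratio scaling, and the median 0.39 became 0.16. Of 27 translation factors 8 rose and 1 fell, against 6.52% and 1.6% of all genes, with 2 and 2 under median-ratio scaling. Eif3c of initiation factor 3 had 148, 179 and 200.3 TPM in Dis, against 88.1, 99.8 and 86.1 TPM in NC (0.93 ± 0.13 SE, adjusted p = 0.0186). Eef2, which moves the ribosome along, had 1345, 2053 and 1497 TPM in Dis, against 943, 911 and 954 TPM in NC (0.78 ± 0.17 SE, adjusted p = 0.0392). Pabpc4, a poly(A)-binding protein, fell by 0.49 on the log2 scale. The 46 cytosolic ribosomal protein genes had a median of 0.45, with 4 higher and 2 lower, against 6.52% and 1.6% of all genes. These ribosomal genes share sequence with many processed copies, so their values are uncertain. Rpl3l, the muscle paralogue that replaces Rpl3 in mature fibres, fell to 432, 372 and 491 TPM in Dis, against 629, 589 and 626 TPM in NC (-0.52 ± 0.12 SE, adjusted p = 0.0493), while Rpl3 had 77, 103 and 38.9 TPM in Dis, against 24.7, 28.2 and 30.6 TPM in NC and did not pass (1.27 ± 0.32 SE, adjusted p = 0.055). Of 24 genes of amino acid transport and catabolism 2 rose, against 6.52% of all genes, and 0 fell in limma. Under median-ratio scaling 1 was higher and 2 lower. Glul, glutamine synthetase, rose by 0.96 and the amino acid transporter gene Slc7a6 by 0.75.

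Glucocorticoids cause muscle wasting in rodents, and genes that respond to them had a median of 0.76 over 25 genes, or 0.39 without Dis replicate 2. In limma 6 rose and 1 fell, against 6.52% and 1.6% of all genes, and 4 rose and 1 fell under median-ratio scaling. Tsc22d3, the glucocorticoid-induced leucine zipper, had 342, 515 and 379.9 TPM in Dis, against 169.9, 163 and 205 TPM in NC (1.18 ± 0.17 SE, adjusted p = 0.019). Sgk1, a kinase induced by the hormone, had 271, 304 and 315 TPM in Dis, against 139, 162 and 166 TPM in NC (0.93 ± 0.11 SE, adjusted p = 0.0149). Per1, which belongs to the clock as well, had 77.8, 86 and 108 TPM in Dis, against 41.6, 43.5 and 50.1 TPM in NC (0.99 ± 0.14 SE, adjusted p = 0.0192). All 9 Dis values lay above the NC values of their gene. Ddit4, Glul and Pik3r1, named above, are the other rises of the list. Dusp1, a phosphatase of MAP kinases, fell to 19.3, 14.3 and 27.8 TPM in Dis, against 51.1, 54.6 and 41 TPM in NC (-1.28 ± 0.24 SE, adjusted p = 0.028). Fkbp5, often read as a sensor of the hormone, had 14.1, 26.8 and 25.2 TPM in Dis, against 22.8, 20.7 and 20.9 TPM in NC and did not pass (-0.01 ± 0.23 SE, adjusted p = 0.973). The metallothionein genes Mt1 and Mt2 were led by 1 sample, Mt1 with 35.5, 795 and 64 TPM in Dis, against 17.1, 25.2 and 23.9 TPM in NC and Mt2 with 17.7, 764 and 39.2 TPM in Dis, against 7.48, 8.66 and 11.3 TPM in NC, and neither passed (0.159 and 0.142 as adjusted p). Without Dis replicate 2 both passed, at adjusted p = 0.0461 and 0.0363. The receptor gene Nr3c1 had 0.41 and did not pass. Summed over the list, the level was 2338, 4865 and 2322 TPM in Dis, then 1694, 2145 and 1529 TPM in Con, and 1311, 1467 and 1552 TPM in NC.

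Several genes of the circadian clock rose. Per2, a repressor of the clock, had 8.46, 8.21 and 10.03 TPM in Dis, against 1.71, 1.67 and 3.36 TPM in NC (1.82 ± 0.24 SE, adjusted p = 0.0177). Cry2, another repressor, had 26, 32.5 and 44.1 TPM in Dis, against 14.9, 16.6 and 17 TPM in NC (1.03 ± 0.19 SE, adjusted p = 0.028). The nuclear receptor gene Rora rose by 0.74. Of 15 core clock genes, Per1 among them, 5 rose, against 6.52% of all genes, and 0 fell in limma (7 and 1 at an unadjusted p below 0.05). The median was 0.27, near the 0.22 of all genes. Under median-ratio scaling 3 were higher, with a median of 0.04. The activators Arntl and Clock had -0.07 and 0.27 and did not pass. Among 13 output genes 4 rose, against 6.52% of all genes, and 0 fell in limma (7 and 0 at an unadjusted p below 0.05). Their median was 0.49. Under median-ratio scaling 2 were higher, with a median of 0.28. The cold-inducible RNA-binding proteins Rbm3 and Cirbp rose most. Rbm3 had 164, 287 and 279 TPM in Dis, against 77.1, 79 and 74.4 TPM in NC (1.61 ± 0.21 SE, adjusted p = 0.017), and Cirbp had 100.2, 124 and 152 TPM in Dis, against 63.6, 61.9 and 53.6 TPM in NC (1.05 ± 0.16 SE, adjusted p = 0.0197). Groups did not overlap for Per2, Cry2, Rbm3 or Cirbp, which the rule for the 15 largest changes required of Per2. Dis replicate 2 was the highest for Rbm3 only. Tef and Bhlhe40 rose by 0.45 and 0.59, while Dbp had 184, 109.6 and 115 TPM in Dis, against 130.0, 93.8 and 133 TPM in NC and did not pass. Collection times are not given in the sources used here, so hour of sampling and group cannot be told apart.

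Stress genes were mixed. Of 28 antioxidant genes 5 rose, against 6.52% of all genes, and 0 fell in limma (12 higher and 1 lower at an unadjusted p below 0.05). The median was 0.54, or 0.21 without Dis replicate 2. Under median-ratio scaling 3 were higher, with a median of 0.31. With that scaling and without Dis replicate 2, 4 were higher and 1 lower, with a median of 0.04. Beside Ggt6, Gpx3, the secreted glutathione peroxidase, had 316, 569.6 and 279.6 TPM in Dis, against 149, 91.2 and 131 TPM in NC (1.60 ± 0.29 SE, adjusted p = 0.0277). Sod1, the cytosolic superoxide dismutase, had 376, 500.2 and 370.5 TPM in Dis, against 209, 199.6 and 222 TPM in NC (0.97 ± 0.14 SE, adjusted p = 0.0186). Gstm2 and Gpx4 rose by 0.99 and 0.91. Of 24 heat shock genes 1 rose and 2 fell, against 6.52% and 1.6% of all genes. Hsp90ab1 rose by 0.80, and Hspa8 and Cryab fell. The inducible Hspa1a had 3.73, 4.41 and 3.03 TPM in Dis, against 8.45, 9.36 and 4.88 TPM in NC and did not pass (-0.90 ± 0.25 SE, adjusted p = 0.0689). Of 22 genes of endoplasmic reticulum stress 0 passed in limma, with 7 higher and 1 lower at an unadjusted p below 0.05, and Atf4, its transcription factor, had 123, 189.9 and 162 TPM in Dis, against 160.0, 150.3 and 158 TPM in NC. In polyamine synthesis Odc1 rose, while Amd2 fell by 1.14 on the log2 scale (adjusted p = 0.0581 without Dis replicate 2) and Amd1 had -1.10. Amd1 and Amd2 are near copies, and reads may have been split between them. Jun, a subunit of AP-1, had 98.5, 152 and 99.99 TPM in Dis, against 48.4, 64.1 and 44.1 TPM in NC (1.14 ± 0.21 SE, adjusted p = 0.0277), and Junb had 31, 167 and 55.1 TPM in Dis, against 28.4, 14.7 and 10.3 TPM in NC, led by replicate 2, and did not pass, with a log2 fold change of 1.99, or 1.32 without that replicate. Fos and Egr1, which respond to activity within minutes, had -1.06 and -0.56 and did not pass.

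Inflammatory transcripts were highest in Dis replicate 2. Acute-phase genes summed to 73.7, 679.8 and 117.8 TPM in Dis, against 51.0, 75.2 and 79.4 TPM in NC. Macrophage markers summed to 134.6, 720.2 and 131.9 TPM in Dis, against 136.0, 140.7 and 164.7 TPM in NC. In limma 0 of 12 and 0 of 16 genes of these lists passed, with 3 and 0 higher at an unadjusted p below 0.05. Adgre1 and Cd68, which mark macrophages, had log2 fold changes of 0.73 and 1.13, or 0.04 and 0.16 without Dis replicate 2. Neutrophil markers summed to 0.702, 28.8 and 10.3 TPM in Dis, against 0.128, 0.931 and 0.278 TPM in NC. S100a8 and S100a9 were the only members kept, and Ly6g and Mpo were below the filter. Serpina3n, an acute-phase serpin, had 1.35, 163 and 2.26 TPM in Dis, against 0.576, 0.589 and 0.659 TPM in NC and did not pass (3.09 ± 1.53 SE, adjusted p = 0.218), but passed without Dis replicate 2 at a log2 fold change of 1.03 and an adjusted p of 0.0345. Of 20 TNF family and NF-kB genes 4 rose, against 6.52% of all genes, and 0 fell in limma (9 and 0 at an unadjusted p below 0.05). For the rises the other Dis samples were high too. Nfkb2 and Relb, the pair of the noncanonical pathway, were among them. Nfkb2 had 19.6, 26.1 and 13 TPM in Dis, against 5.83, 7.1 and 6.03 TPM in NC (1.51 ± 0.24 SE, adjusted p = 0.0211). Relb had 11.7, 17.7 and 9.05 TPM in Dis, against 5.31, 4.36 and 5.05 TPM in NC (1.25 ± 0.23 SE, adjusted p = 0.0288). Nfkbib and Traf2 rose by 1.01 and 0.73, and the same 4 genes passed without Dis replicate 2. Tnfrsf12a, the receptor of TWEAK, had 11.2, 24.2 and 20.9 TPM in Dis, against 10.5, 16.9 and 10.7 TPM in NC and did not pass (0.51 ± 0.31 SE, adjusted p = 0.296). Of 28 interferon genes only Cxcl10 rose, against 6.52% of all genes, and 0 fell in limma. Of 15 kept chemokine and cytokine genes only Il6st, the shared receptor of the interleukin-6 family, passed, at 0.62.

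Few matrix genes passed. Of 20 collagens only Col19a1 rose, against 6.52% of all genes, and 0 fell in limma. It had 0.569, 1.07 and 0.501 TPM in Dis, against 0.148, 0.0951 and 0.0866 TPM in NC (0.96 ± 0.22 SE, adjusted p = 0.0449). All its NC values lay under 0.3 TPM, so it passed the filter through Dis alone. Its adjusted p was 0.0557 without Dis replicate 2. Without that replicate 0 collagens rose and 4 fell, with a median of -0.39 in place of -0.07. Col1a1, the main fibrillar collagen, had 10.4, 82.3 and 18.9 TPM in Dis, against 17.6, 46 and 22.4 TPM in NC and did not pass (-0.04 ± 0.71 SE, adjusted p = 0.973). Of 29 other matrix genes only Ccn1, a matricellular protein, rose (1.26 ± 0.28 SE, adjusted p = 0.0421), against 6.52% of all genes. Of 21 proteases and inhibitors 0 passed in limma (0 at an unadjusted p below 0.05). Without Dis replicate 2 the adjusted p of Ccn1 was 0.0584, so that 0 of the 29 rose and 1 fell, with a median of -0.33 in place of 0.11. Under median-ratio scaling 0 of the 29 passed, and Ccn1 had an adjusted p of 0.0783. Itgb1bp2, the muscle integrin-binding protein melusin, fell to 95.8, 78.6 and 82.2 TPM in Dis, against 153, 179 and 150.1 TPM in NC (-0.91 ± 0.12 SE, adjusted p = 0.0169). Among markers of fibro-adipogenic, fat, endothelial, mural and tendon cells 0 genes passed in limma. At an unadjusted p below 0.05, 5 of 10 adipocyte and 5 of 11 mural markers were higher, endothelial markers had 1 higher and 1 lower of 15, tendon markers 1 lower of 10 and fibro-adipogenic markers 0 of 12. Adipocyte markers summed to 3799, 3933 and 5636 TPM in Dis, against 3377, 3059 and 3539 TPM in NC. Their part in the other results was not tested.

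The study picked 13 genes from its sequencing for RT-qPCR, and 10 of them passed the filter on low values. Among these 4 rose, namely Fbxo32, Tgfbr1, Hdac4 and Igfn1, and 1 fell, Csrp3. Because they were picked on these samples, their direction is not independent evidence. H2ac18, a histone gene of the same set, had 35, 0.0878 and 132 TPM in Dis, against 68.8, 0.0583 and 0.0618 TPM in NC and did not pass (2.33 ± 2.44 SE, adjusted p = 0.542). Dis replicates 1 and 3 and NC replicate 1 lay far above the other 3 samples, which were near 0. Cdh1, Ccn4 and Tnfrsf11b were below the filter. Myh4, Tnnt3, Tpm1 and Atp2a1, sarcomere and calcium pump genes among the highest in mean TPM, had 0.28, 0.30, 0.27 and 0.30 and did not pass.

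**Figure D5:**
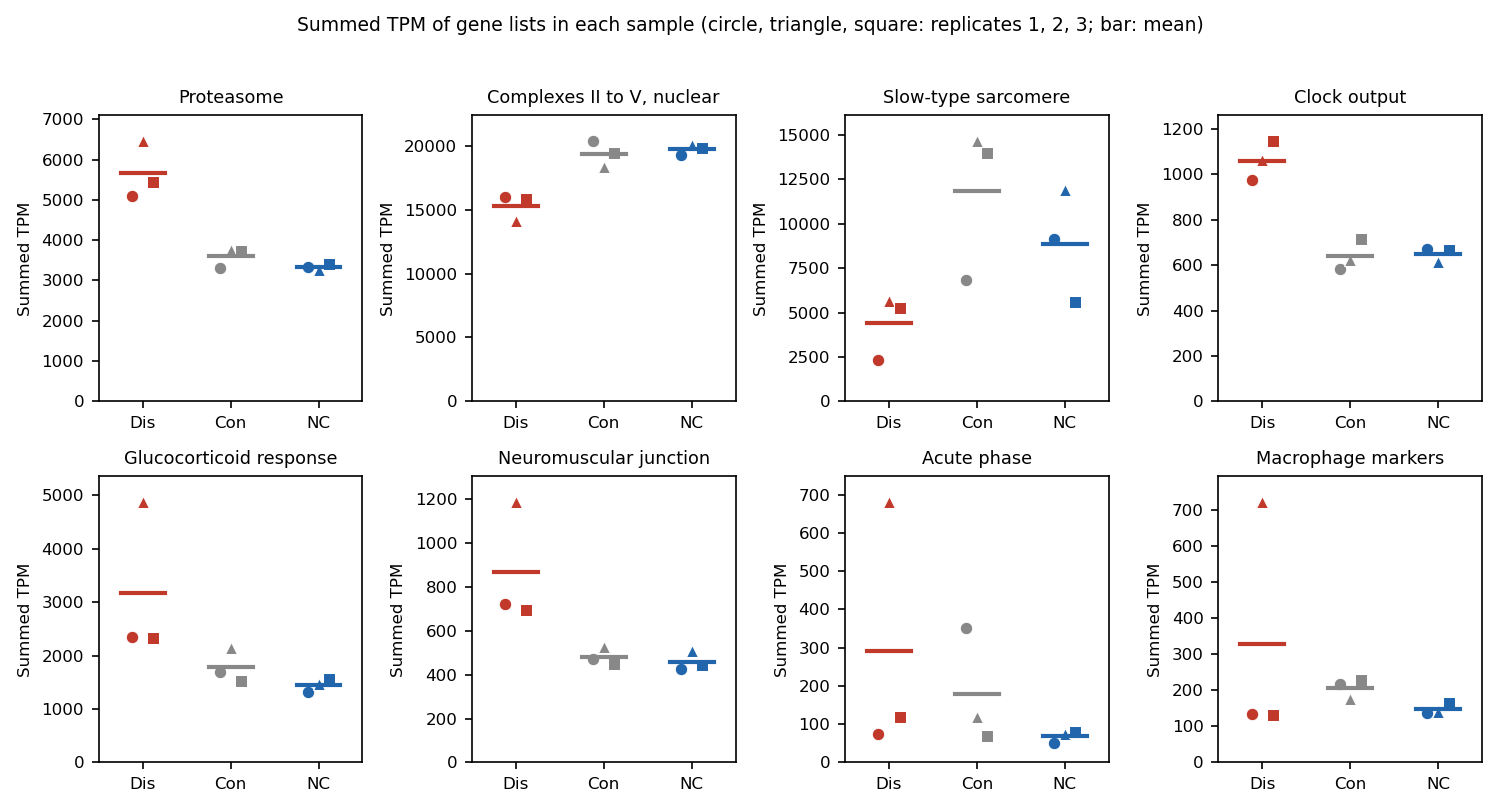
Summed TPM of 8 gene lists in each sample of Dis, Con and NC, with circles, triangles and squares for replicates 1, 2 and 3 and bars for the mean of 3; each y axis starts at 0. The Dis sums of proteasome genes (5091 to 6451) lie above those of NC (3250 to 3407), those of complexes II to V (14080 to 16010) lie below (19320 to 20070), and the acute-phase and macrophage sums peak in Dis replicate 2 (679.8 and 720.2), with the acute-phase sum of Con replicate 1 next at 350.2.

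The free leg of bandaged mice lay beside NC for some of these genes and not for others. In a fit to all 9 samples 1 gene differed between Con and NC, the processed pseudogene Gm7327, and 965 genes had an unadjusted p below 0.05. Because both comparisons share the NC samples, the Con values are given as a description. Proteasome genes summed to 3311, 3759 and 3742 TPM in Con, against 3333, 3250 and 3407 TPM in NC. Complexes II to V summed to 20350, 18350 and 19420 TPM in Con, against 19320, 20070 and 19800 TPM in NC, and the groups overlapped for both sums. Tmem100 had 10.3, 27.8 and 28.5 TPM in Con, where replicate 1 lay inside the NC range. Eda2r had 6.83, 11.1 and 10.9 TPM in Con, between the Dis and the NC values. Per2 had 5.0, 4.74 and 7.89 TPM in Con, all above the 3 NC values. Csrp3 had 275, 526 and 481 TPM in Con, above the NC values, which were in turn above Dis. Ankrd1 had 26.5, 33.2 and 33 TPM in Con, which was above NC and overlapped with Dis. Bdh1 had 45.8, 55.2 and 48.1 TPM and Hspa1a 13.6, 22.9 and 17.7 TPM in Con, again higher than in NC. For Csrp3, Ankrd1, Per2 and Bdh1 the adjusted p of Con against NC was 0.281, 0.393, 0.393 and 0.393 in the fit to all 9 samples, so none of these differences passed.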

How the data were processed

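Total RNA of gastrocnemius muscle was sequenced by the authors, and the labels and methods name bcl2fastq 2.20, Trimmomatic, HISAT2 and StringTie. The deposited values are TPM per gene, 1 table a sample, computed by the authors. The genome build is not given in the sources used here, but 54901 of 55487 gene IDs had the coordinates of GENCODE M21 on GRCm38. Read totals are not in the tables, so depth and counting error are unknown. A value of 0.0001 TPM stands for 0 and was read as such. Groups came from the labels. Genes that reached 0.3 TPM in 3 or more of the 6 libraries were tested in limma 3.58.1 (R 4.3.3) with the mean trend on log2(TPM + 0.5), two-sided, at a Benjamini-Hochberg adjusted p below 0.05. The test was checked on simulated data, where it recovered 18.6, 63.6, 81.6 and 91.2% of rises of 1.5, 2, 3 and 4-fold. Rises were placed only in genes whose NC mean of log2(TPM + 0.5) was above 1. No falls were simulated, so recovery in lower genes and of falls was not checked. The simulation gave each gene the same spread in both groups and no shift between libraries. It therefore did not cover the wider spread of Dis or the median of 0.22 over all genes. Python 3.11.15, pandas 2.3.3, numpy 2.4.6 and matplotlib 3.10.9 were used for summaries and plots, and promoters came from RefSeq on GRCm38.p6. The methods name a strand-specific library kit, but the strand setting of the counting is not given in the sources used here, so overlapping genes and near copies are uncertain.

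Named genes were the 15 largest changes called in each direction among genes with a curated symbol, groups apart and a mean of at least 1 TPM in the higher group. They also included the first members and up to 3 largest calls of each gene list, the RT-qPCR genes, the 10 genes of highest mean TPM in each group, and up to 3 genes each way listed at 0 throughout a group. The comparison and the gene lists were chosen with earlier results of these data known. Alternatives were pseudocounts of 0.1 and 1, no filter and a filter at 1 TPM, scaling by median ratio or quantiles, removal of mitochondrial transcripts from the total, array weights, no mean trend, a replicate block, a fit to all 9 samples and each replicate left out.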

Additional observations from a re-analysis of the deposited data

How the results depend on the processing

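The counts of 1017 genes higher and 250 lower in Dis stayed within 1.5 times under pseudocounts of 0.1 and 1, a filter at 1 TPM, array weights, and without Dis replicate 1 or 2. Median-ratio scaling gave 241 higher and 386 lower, quantile scaling gave 263 higher and 324 lower, and rescaling without mitochondrially encoded genes gave 566 and 246, so that 38.4%, 44.8% and 69.7% of calls were higher in place of 80.3%. With no filter beyond a value above 0 the counts were 246 and 60 over 26743 genes, with no mean trend 426 and 133, and in the fit to Dis, Con and NC 2248 and 493. Over the fits that left out 1 replicate each, the counts ranged from 0 to 1135 higher and from 0 to 324 lower in limma, and the fits without 1 NC replicate gave the 0. Median-ratio scaling without Dis replicate 2, an alternative chosen after seeing the data, gave 344 and 493. Of the 262 named genes, 146 were called, and 49 of these missed the threshold under median-ratio scaling, 110 with no filter, 55 without Dis replicate 3 and all 146 without any 1 NC replicate. None of these 146 genes changed direction under any of these alternatives, but all of them reuse the samples on which the genes were called. Depth is unknown, so what it limits cannot be given.

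With the replicate number as a block, limma called 0 genes higher and 0 lower, with 3435 and 753 at an unadjusted p below 0.05 and a smallest adjusted p of 0.0623. Samples of Dis and NC with the same number share only that number. The correlations of their deviations were 0.0726, 0.0185 and -0.11, and only replicate 1 correlated best with its own number.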
